A study of Mus musculus with 7 samples.

Results

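The cardiac T-box transcription factors were followed in RNA-seq of mouse outflow tracts (OFT) at embryonic day 11.5. They are the 6 genes *Tbx1*, *Tbx2*, *Tbx3*, *Tbx5*, *Tbx18* and *Tbx20*, chosen by name as the family members with known roles in the heart and its progenitors, out of 14732 gene entries in the deposited table. All 6 had a row, so each had reached 1 CPM in at least 3 pools, which is the level at which genes were kept in the table. CPM, the unit of the table, is the read number of a gene set against the scaled size of its library. *Gata6* encodes a zinc-finger factor needed for OFT and valve development, and the question was how gene expression in the OFT differs when 1 copy of *Gata6* is disrupted. By the labels, 3 pools were controls (WT, numbered 3, 4 and 5) and 4 were *Gata6*STOP/+ (numbered 1, 3, 4 and 5).

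The *Gata6*STOP allele is a CRISPR-made frameshift that ends the reading frame early, carried on 1 chromosome in the mutant embryos. The line came from 1 selected founder and was backcrossed to C57BL/6 mice. Each pool combined several pairs of OFT. The methods describe equally many pools for each genotype, which is not so in the labels. A supplementary sheet lists *Mib1* mutant alleles as the background of injected embryos, and neither the labels nor the methods say whether the pools carried them. The labels give neither the sex nor the litters of the embryos, and all p-values below measure the spread between these pools.

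T-box factors share a DNA-binding domain, the T-box, and recognise closely related DNA elements, so that activators and repressors of the family can compete for the same sites. In the embryonic heart TBX5 and TBX20 help to activate the chamber program together with NKX2-5 and GATA4, whereas TBX2 and TBX3 repress chamber genes in the OFT, the atrioventricular canal and the conduction system. TBX1 keeps second heart field progenitors dividing and is needed to lengthen and septate the OFT, and TBX18 marks the epicardium, the sinus horns and their precursors.

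The coding sequences of the 6 genes are shown where they are most alike, since near-identical stretches could let reads of one member be counted for another. For each gene the line gives the 60 bases, the length of 1 read, that aligned without gaps to the other 5 members with the most shared bases. They lie in the T-box and were read from GENCODE M21 transcripts on the GRCm38 build, 5′ to 3′ on the gene's own strand. Capitals mark the 34 bases that are the same in all 6 genes.
Tbx1: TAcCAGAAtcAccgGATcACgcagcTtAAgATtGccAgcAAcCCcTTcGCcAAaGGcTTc
Tbx2: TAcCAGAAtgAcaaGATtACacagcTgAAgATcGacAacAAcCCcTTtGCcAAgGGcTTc
Tbx3: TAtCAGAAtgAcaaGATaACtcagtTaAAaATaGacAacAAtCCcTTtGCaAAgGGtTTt
Tbx5: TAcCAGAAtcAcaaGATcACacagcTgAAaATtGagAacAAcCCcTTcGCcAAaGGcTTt
Tbx18: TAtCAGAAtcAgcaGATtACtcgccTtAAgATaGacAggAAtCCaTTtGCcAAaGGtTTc
Tbx20: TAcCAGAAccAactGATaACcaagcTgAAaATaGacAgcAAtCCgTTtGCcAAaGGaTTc

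Between any pair of members 42 to 52 of the 60 bases were identical. *Tbx2* and *Tbx5* were the closest pair with 52 shared bases, and *Tbx2* and *Tbx3* shared 49. *Tbx1* with *Tbx3* and *Tbx5* with *Tbx18* were the most distant pairs, with 42 each. Each stretch runs over the junction of 2 exons. The spans are chr16:18582930-18583433 (minus strand) for *Tbx1*, chr11:85835927-85837097 (plus) for *Tbx2*, chr5:119675690-119677545 (plus) for *Tbx3*, chr5:119845103-119853573 (plus) for *Tbx5*, chr9:87713518-87715537 (minus) for *Tbx18* and chr9:24750344-24758740 (minus) for *Tbx20*. In spite of this likeness no read-length sequence was shared. Of the 3567 to 11989 different 60-base words in the annotated transcripts of each member, 0 occurred in a transcript of another gene, so a full-length exact read could be assigned to 1 member.

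The pools held 17783655 to 34467710 reads on the listed genes. *Gata6*, the targeted gene, was read first as a check of the labels. Its level was 315.3, 257.4 and 285.9 CPM in control replicates 3, 4 and 5, and 268.4, 202.8, 218.8 and 216.8 CPM in *Gata6*STOP/+ replicates 1, 3, 4 and 5. The mean was lower in the mutant pools by a log2 difference of -0.34 (SE 0.099), but *Gata6*STOP/+ replicate 1 lay above control replicate 4 and the adjusted p from limma was 0.389. Reads of the frameshifted transcript count as *Gata6*, so this level cannot show how much intact transcript remained. Control replicate 4 stood apart from the other control pools in several gene groups. The differences of *Tbx1*, *Tbx2*, *Tbx3*, *Tbx5* and *Tbx20* and several list medians are given below with and without it. Test results of single genes outside the members, such as *Bmp10* and *Ednrb*, are given only with it. The summed level of 10 chamber genes was 840.6 CPM in control replicate 4, against 324.8 and 382.4 CPM in control replicates 3 and 5.

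**Figure D1:**
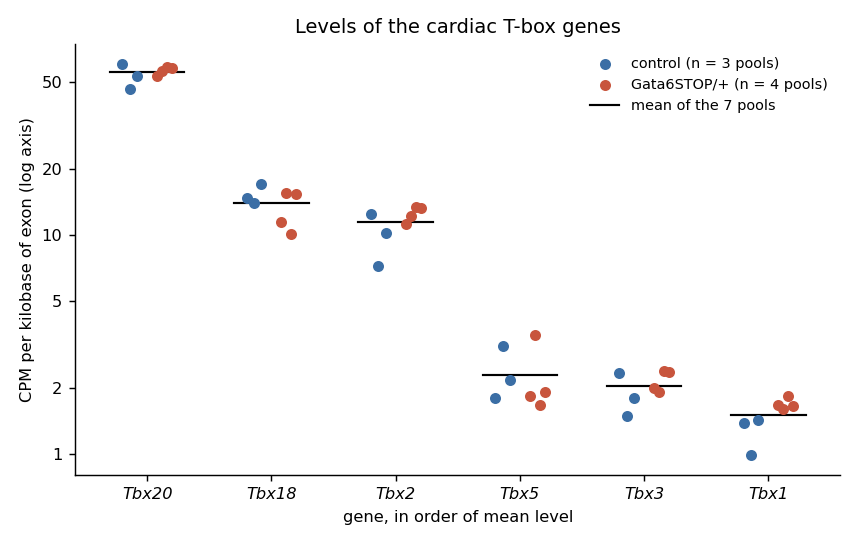
Level of each cardiac T-box gene in CPM per kilobase of exon on a log axis, 1 point per pool, with control pools in blue, *Gata6*STOP/+ pools in red and a black line at the mean of the 7 pools. *Tbx20* lies between 46.5 and 60.7, above every pool of every other member, and *Tbx1*, *Tbx3* and *Tbx5* lie at or below 3.52.

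*Tbx20* was by far the most abundant member in the OFT at this stage. To compare levels between genes, CPM was divided by the length of each gene's exons in kilobases. On that scale *Tbx20* had a mean level of 55.2 over the 7 pools (range 46.5 to 60.7), above 94.5% of the listed genes. It made up 61.7% to 66.5% of the summed level of the 6 members in a pool. *Tbx20* encodes a factor that is required for myocardial and endocardial development.

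*Tbx18* and *Tbx2* came next. *Tbx18* had a mean level per kilobase of 14.0 (range 10.1 to 17.1) and *Tbx2* of 11.4 (range 7.21 to 13.4), which overlapped, although *Tbx18* was higher in 6 of 7 pools. The order was reversed only in *Gata6*STOP/+ replicate 4, where *Tbx18* was at its lowest. Below them the level per kilobase of *Tbx5* had a mean of 2.30 (range 1.68 to 3.52), of *Tbx3* 2.05 (range 1.49 to 2.39) and of *Tbx1* 1.51 (range 0.991 to 1.84). *Tbx20* and *Tbx18*, and *Tbx2* and *Tbx5*, were separated by gaps with no overlap between pools, with ratios of the mean levels per kilobase of 3.93 and 4.98. The order of *Tbx5* and *Tbx3* was not fixed, since *Tbx5* was higher in 3 of 7 pools. *Tbx3* and *Tbx1* overlapped in range, yet *Tbx3* was higher within each of the 7 pools. Of the repressor pair, *Tbx2* was the more abundant in the dissected tissue, with a level per kilobase 4.84 to 6.37 times that of *Tbx3* in every pool. The size of this ratio depends on the exon length used. By longest transcript the mean levels were 11.4 for *Tbx2* and 2.72 for *Tbx3*.

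No member passed the test for a difference between genotypes. With limma on log2(CPM + 0.5), fitted over all 14732 entries with two-sided tests and Benjamini-Hochberg adjustment, 0 of 6 members had an adjusted p under 0.05, where 0.0% of all genes did and the smallest adjusted p of any gene was 0.097. Without adjustment 2 of 6 members, *Tbx1* and *Tbx2*, had a p under 0.05, as did 8.06% of all genes. That count fell to 0 without control replicate 4 or without *Gata6*STOP/+ replicate 4. It rose without control replicate 3, where unadjusted limma p-values were 0.0187 for *Tbx1*, 0.00253 for *Tbx2*, 0.0153 for *Tbx3* and 0.0497 for *Tbx20*. Without each of the remaining pools the count was 1 to 3. In 1 of 6 members every mutant pool lay above every control pool, where 4.31% of all genes did, and in 0 of 6 every mutant pool lay below, where 4.16% did. By mean, 4 members were higher in the mutant pools and 2 lower. The median log2 difference of the 6 was 0.15, against -0.00073 over all listed genes, and it was 0.09 without control replicate 4 and 0.28 without control replicate 3. 

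**Figure D2:**
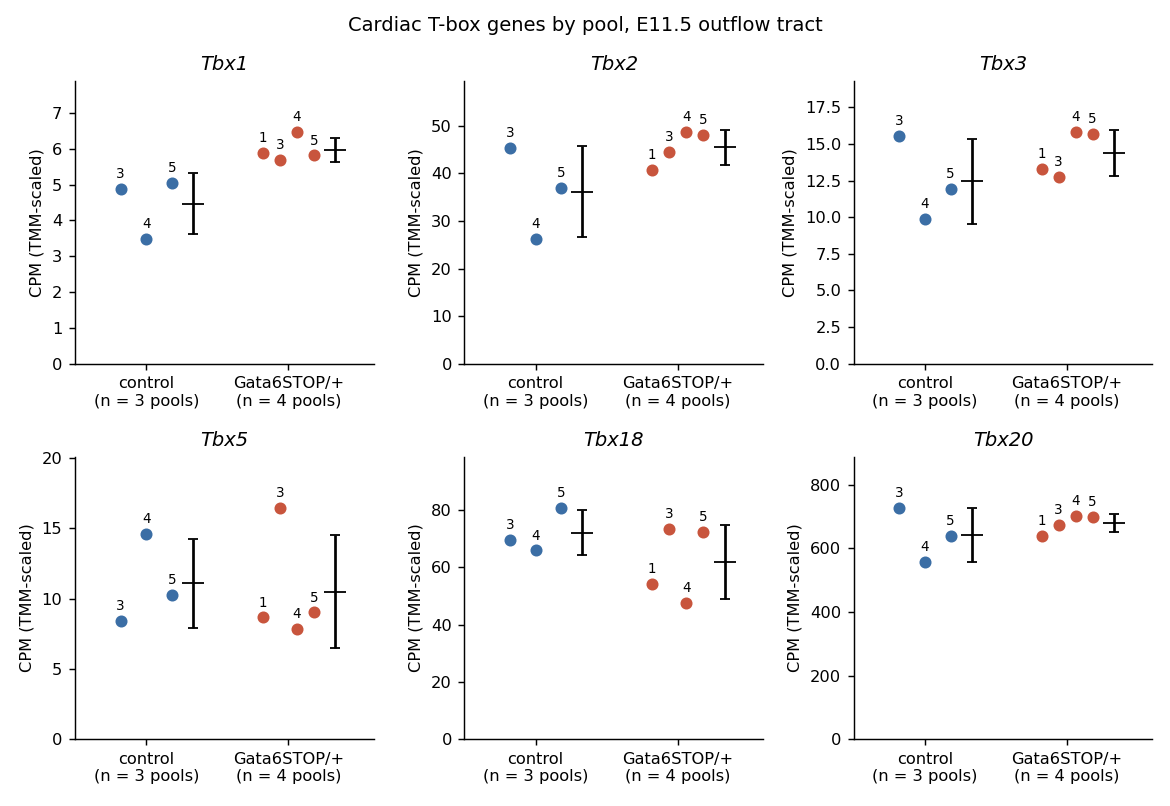
CPM of each cardiac T-box gene in every pool, with the replicate number over each point and the mean ± SD of each group in black (3 control pools, 4 *Gata6*STOP/+ pools); each axis starts at 0. *Tbx1* is the member whose groups do not overlap, and control replicate 4 is the lowest of the 7 pools for *Tbx1*, *Tbx2*, *Tbx3* and *Tbx20*.

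*Tbx1* (chr16:18580979-18590671, minus strand, ENSMUSG00000009097) encodes a factor needed to lengthen and septate the OFT. Its level was 4.89, 3.48 and 5.04 CPM in control replicates 3, 4 and 5, and 5.89, 5.69, 6.47 and 5.82 CPM in *Gata6*STOP/+ replicates 1, 3, 4 and 5. All 4 mutant pools were above all 3 controls, and the gap between the nearest pools was smaller than that between control replicates 4 and 5. The means were 4.47 ± 0.858 CPM (SD, n = 3) and 5.97 ± 0.345 CPM (SD, n = 4), so the mutant mean was 133% of the control mean. The log2 difference was 0.39 (SE 0.143, 95% interval 0.08 to 0.71), with a limma p of 0.0191 and an adjusted p of 0.517. Without control replicate 4 the difference was 0.24 (adjusted p from limma 0.614). This is a low gene, with a mean CPM above that of 21.8% of the listed genes, and 90 to 200 reads a pool support these values.

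*Tbx2* (chr11:85832551-85841948, plus strand, ENSMUSG00000000093) encodes a repressor of chamber genes that BMP signaling turns on in the OFT and the atrioventricular canal. Its level was 45.3, 26.2 and 37.0 CPM in control replicates 3, 4 and 5, and 40.8, 44.5, 48.7 and 48.0 CPM in *Gata6*STOP/+ replicates 1, 3, 4 and 5. The groups overlapped, because control replicate 3 was above mutant replicates 1 and 3, while the other two controls were below every mutant pool. The mutant mean (45.5 ± 3.64 CPM, SD, n = 4) was 126% of the control mean (36.1 ± 9.58 CPM, SD, n = 3). The log2 difference was 0.36 (SE 0.149, 95% interval 0.03 to 0.69), with a limma p of 0.0351 and an adjusted p of 0.579. It was 0.15 without control replicate 4 and 0.54 without control replicate 3, so that these 2 pools set much of its size. Beside *Tbx2*, 327 bases away on the opposite strand, the noncoding gene *2610027K06Rik* had 1.59 ± 0.251 CPM in the control pools and 2.37 ± 0.496 CPM in the mutant pools (adjusted p from limma 0.598).

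*Tbx3* (chr5:119670669-119684724, plus strand, ENSMUSG00000018604), the other repressor, is best known for the sinus node and conduction system. Its level was 15.6, 9.87 and 11.9 CPM in control replicates 3, 4 and 5, and 13.3, 12.8, 15.8 and 15.7 CPM in *Gata6*STOP/+ replicates 1, 3, 4 and 5. Control replicate 3 was above mutant replicates 1 and 3, as for *Tbx2*, and the groups overlapped. The log2 difference was 0.22 (SE 0.146, 95% interval -0.10 to 0.54, adjusted p from limma 0.755). It was 0.07 without control replicate 4 and 0.39 without control replicate 3. An antisense gene, *Tbx3os1*, overlaps the 5′ end of *Tbx3* and had no row. The libraries kept strand, but whether counting used it is not given in the sources used here, so reads of the pair may not be told apart. The same holds for *Tbx18* and *D030062O11Rik* on its opposite strand.

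*Tbx20* (chr9:24718138-24774303, minus strand, ENSMUSG00000031965) was the steadiest member as well as the most abundant. Its level was 727.7, 557.4 and 640.3 CPM in control replicates 3, 4 and 5, and 640.4, 673.4, 702.2 and 697.8 CPM in *Gata6*STOP/+ replicates 1, 3, 4 and 5. The mutant pools fell inside the range of the controls. The coefficient of variation within groups was 8.77%, the smallest of the 6. The log2 difference of 0.09 (SE 0.089, 95% interval -0.11 to 0.28, adjusted p from limma 0.838) became -0.0098 without control replicate 4. The interval leaves room for a mutant level up to 0.28 higher on the log2 scale, so an equal level in both genotypes was not shown.

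*Tbx5* (chr5:119832668-119885219, plus strand, ENSMUSG00000018263) encodes an activator of the chamber program that is at its strongest in the atria and left ventricle and low in the OFT. Its level was 8.44, 14.6 and 10.2 CPM in control replicates 3, 4 and 5, and 8.66, 16.4, 7.85 and 9.01 CPM in *Gata6*STOP/+ replicates 1, 3, 4 and 5. One pool of each genotype, control replicate 4 and mutant replicate 3, stood above the others, which lay between 7.85 and 10.2 CPM. The coefficient of variation within groups was 34.3%, the largest of the 6, and the log2 difference was -0.10 (SE 0.241, 95% interval -0.63 to 0.43, adjusted p from limma 0.941). The sign was not stable, with differences of 0.10 without control replicate 4 and 0.01 without mutant replicate 4, and -0.33 without mutant replicate 3.

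*Tbx18* (chr9:87702800-87731260, minus strand, ENSMUSG00000032419) marks the epicardium and the mesenchyme at the venous pole. Its level was 69.5, 65.9 and 80.8 CPM in control replicates 3, 4 and 5, and 54.3, 73.3, 47.6 and 72.5 CPM in *Gata6*STOP/+ replicates 1, 3, 4 and 5. Mutant replicates 1 and 4 were below every other pool, whereas mutant replicates 3 and 5 fell among the controls. The log2 difference was -0.24 (SE 0.143, 95% interval -0.55 to 0.08, adjusted p from limma 0.733). It was -0.12 without mutant replicate 4 and -0.15 without control replicate 5. The nearest listed gene toward higher coordinates, *Nt5e*, lies 595936 bases away and was lower in every mutant pool, at 7.99 ± 0.959 against 11.5 ± 1.17 CPM (log2 difference -0.50, adjusted p from limma 0.267).

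**Figure D3:**
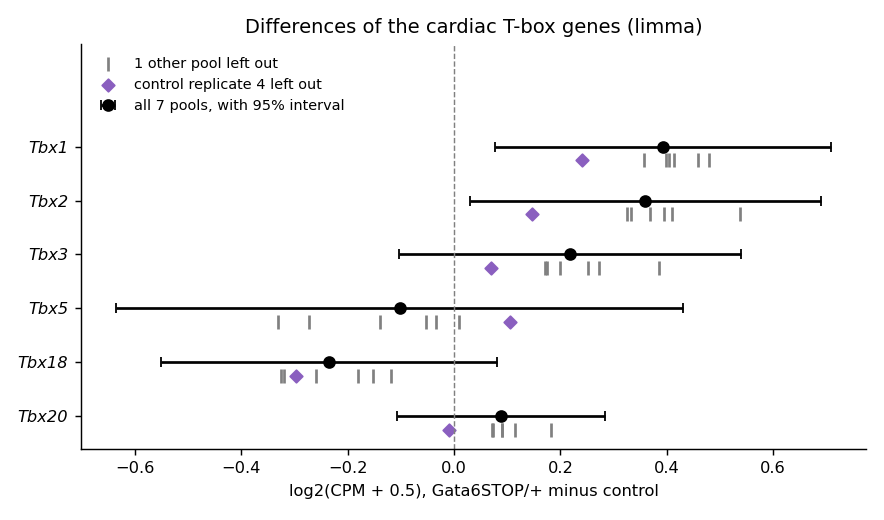
Difference of each cardiac T-box gene between *Gata6*STOP/+ and control pools in log2(CPM + 0.5), with the 95% interval from limma in black, the value with control replicate 4 left out as a purple diamond and the values with any 1 other pool left out as grey ticks. The intervals of *Tbx1* and *Tbx2* lie above 0 (0.08 to 0.71 and 0.03 to 0.69), and without control replicate 4 the values of *Tbx1*, *Tbx2*, *Tbx3* and *Tbx20* fall to 0.24, 0.15, 0.07 and -0.0098.

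The members did not vary alike from pool to pool. Control replicate 4 was the lowest pool for 4 of 6 members (*Tbx1*, *Tbx2*, *Tbx3* and *Tbx20*), where it was the lowest for 11.7% of all listed genes, and it was the second highest for *Tbx5*. Against the mean of the 7 pools in log2(CPM + 0.5), control replicate 4 stood at -0.63 for *Tbx2*, -0.53 for *Tbx1* and -0.42 for *Tbx3*, and at 0.47 for *Tbx5*. *Gata6*STOP/+ replicate 4 was the reverse case, highest for *Tbx1* (0.28), *Tbx2* (0.25) and *Tbx3* (0.23), and lowest for *Tbx5* (-0.38) and *Tbx18* (-0.45). The level per kilobase of *Tbx2* was therefore 2.32 times that of *Tbx5* in control replicate 4 and 8.0 times in *Gata6*STOP/+ replicate 4. The ratio of *Tbx20* to *Tbx2* per kilobase varied less. It spanned 4.86 to 6.44 for controls and 4.36 to 4.74 for mutants. Of 5 ratios between members that were computed, this was the 1 whose groups did not overlap, which is a description and was not tested.

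**Figure D4:**
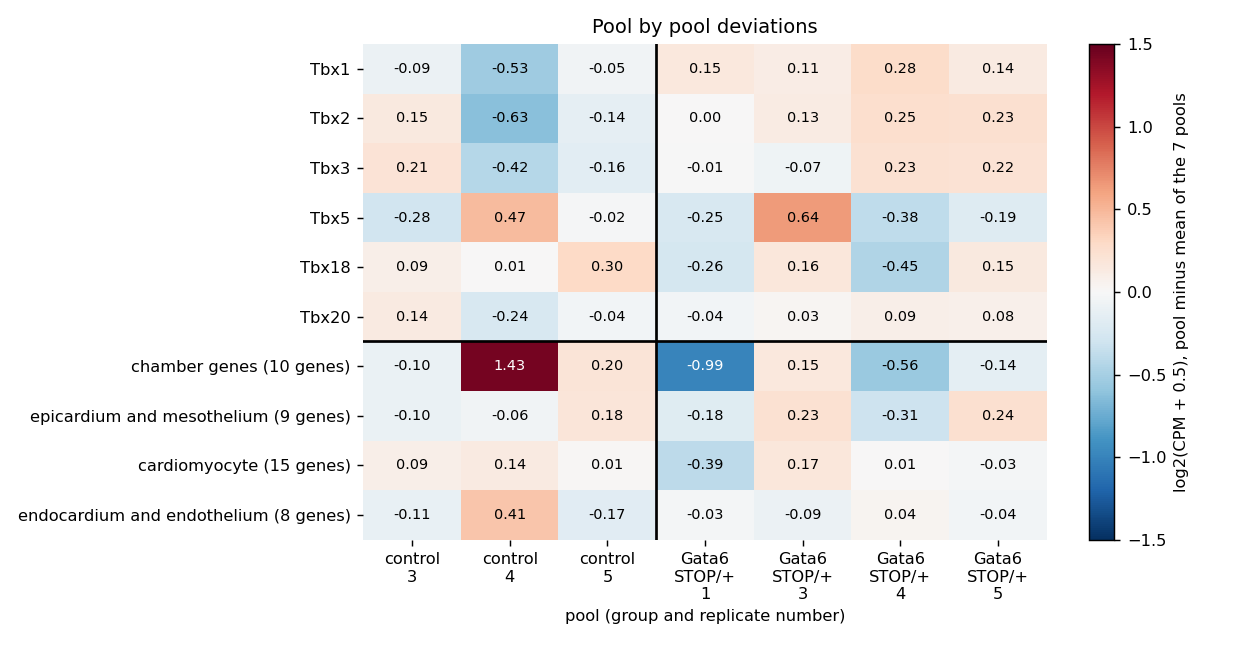
Deviation of each pool from the mean of the 7 pools in log2(CPM + 0.5), for the 6 cardiac T-box genes (above the line) and for the mean of the genes in 4 lists (below it), with control pools left of the vertical line; red is above and blue below the mean. Control replicate 4 is at -0.63 for *Tbx2*, 0.47 for *Tbx5* and 1.43 for the chamber genes, and *Gata6*STOP/+ replicates 1 and 4 are low both for *Tbx18* and for the epicardial list.

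The chamber genes that TBX2 and TBX3 are known to repress were read beside them. The list held 10 genes and all 10 had a row. None passed the adjusted test, 9 were lower and 1 higher by mean in the mutant pools, and the median log2 difference was -0.57, against -0.00073 over all genes. Unadjusted limma p-values were under 0.05 for 5 genes with a lower mean and 1 with a higher mean, where 8.06% of all genes had one. Control replicate 4 was the highest pool for 8 of the 10, where it was the highest for 11.9% of all listed genes, and without it the median was -0.27, whereas without control replicate 3 it was -0.84.

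*Nppa*, which encodes the atrial natriuretic peptide of chamber myocardium, measured 32.1, 173.8 and 18.3 CPM across the controls and 3.26, 28.3, 6.63 and 11.8 CPM across the mutants, both in order of replicate number. *Bmp10*, a ligand of trabecular myocardium, was at 6.14, 66.5 and 11.3 CPM in the controls, and at 0.631, 5.69, 1.75 and 5.79 CPM in the mutants in the same order. Every mutant pool was below every control for *Bmp10*, with an adjusted p from limma of 0.419. The exception was *Hand1*, which besides being a target in this list is expressed in the OFT and left ventricle itself. It was higher in every mutant pool, at 89.5, 79.8, 88.6 and 76.8 CPM against 74.1, 57.6 and 58.0 CPM (log2 difference 0.41, SE 0.0955, adjusted p from limma 0.246).

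The summed level of the chamber list ran from 324.8 to 840.6 CPM in the control pools and from 271.4 to 410.5 CPM in the mutant pools, with no member of the list at 0. In RNA of whole dissected tissue, fewer cells of a type and less RNA per cell cannot be told apart. The pool with the highest chamber level (control replicate 4) had the lowest *Tbx1*, *Tbx2*, *Tbx3* and *Tbx20* and a high *Tbx5*. The pool with the lowest chamber level, *Gata6*STOP/+ replicate 1 (271.4 CPM), was not the highest for *Tbx2* or *Tbx3*. In that pool *Tbx2*, *Tbx3* and *Tbx5* were at 40.8, 13.3 and 8.66 CPM, each inside the range of the control pools. The part that dissected chamber tissue had in these values was not tested. Control replicate 4 was also highest for 5 of 8 endocardial and endothelial markers, where it was highest for 11.9% of all listed genes. Among the 5 were *Emcn* and *Npr3*, with *Npr3* at 100.1 CPM against 34.2 to 46.8 CPM in the other pools. *Gata6*STOP/+ replicate 1 was highest for 1 marker, *Tek* (200.8 CPM, against 173.9 CPM in control replicate 4). *Gata6*STOP/+ replicate 4 was highest for 2, among them *Pecam1* (195.1 CPM, against 160.3 CPM in control replicate 4). All 15 cardiomyocyte markers had a row, and their summed level was 21900 CPM in *Gata6*STOP/+ replicate 1 and 27656 to 31655 CPM in the other pools.

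Within the mutant pools, epicardial markers were low in the same pools as *Tbx18*. Of the 10 markers 9 had a row and none of these was at 0 in any pool, and their summed level was 417.9 to 492.6 CPM in the control pools and 377.3 to 523.2 CPM in the mutant pools. In *Gata6*STOP/+ replicates 1 and 4, with the lowest *Tbx18*, the sum was 410.0 and 377.3 CPM, and in replicates 3 and 5 it was 521.8 and 523.2 CPM. *Wt1*, the defining epicardial factor, was at 35.8 and 32.5 CPM in mutant replicates 1 and 4, and at 51.5 and 47.4 CPM in replicates 3 and 5. *Aldh1a2*, the retinoic acid enzyme of the epicardium, was at 33.3 and 34.9 CPM against 67.1 and 61.8 CPM in the same pools. The controls lay between, at 37.4 to 44.0 CPM for *Wt1* and 42.1 to 50.7 CPM for *Aldh1a2*, yet for *Tbx18* they were at 65.9 to 80.8 CPM. By group, the epicardial list had a median log2 difference of 0.05 (-0.06 without *Gata6*STOP/+ replicate 3 and 0.16 without replicate 4) and 0 of 9 genes passed the adjusted test. The part of epicardial content in the *Tbx18* values was not tested.

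*Tbx1* is expressed outside the heart in pharyngeal epithelium and muscle progenitors, which a dissection could include. Of 14 pharyngeal epithelium markers only the keratins *Krt8* and *Krt18* had a row, and both are also made by epicardium. *Epcam*, *Cdh1*, *Foxa2*, *Pax9* and the other markers of the list were not analysed here, having no row. Of 6 pharyngeal muscle progenitor markers only *Tcf21*, also an epicardial gene, had one. *Tbx1* itself was read in every pool.

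Of 13 genes that act downstream of TBX1, 10 had a row. None passed the adjusted test, 6 were higher and 4 lower by mean, and the median log2 difference was 0.15, or 0.02 without control replicate 4. *Isl1*, the second heart field factor, was at 37.5, 34.6 and 42.4 CPM in the control pools and 70.5, 47.8, 55.4 and 42.3 CPM in the mutant pools (log2 difference 0.47, SE 0.147, adjusted p from limma 0.419). Control replicate 5 and mutant replicate 5 were level, and the other mutant pools were higher. *Flt4*, which encodes the VEGF-C receptor, was lower in every mutant pool, at 20.1, 18.4, 20.8 and 22.1 CPM against 24.8, 29.8 and 24.9 CPM (log2 difference -0.37, SE 0.0935, adjusted p from limma 0.289). *Wnt5a*, the most abundant gene of the list, had a log2 difference of -0.03.

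With limma no gene among the inputs to the T-box genes or their partners passed the adjusted test, whereas edgeR's likelihood ratio test on the recovered reads called 1 input, *Bmp10*. Of 17 BMP ligands, SMADs and other inputs, 14 had a row, 7 were higher and 7 lower by mean, and the median log2 difference was 0.01. *Bmp4*, the main BMP ligand of the OFT, had a log2 difference of 0.13 with an adjusted p from limma of 0.786. *Smad9*, a transducer of BMP signals, was at 31.3, 22.4 and 24.6 CPM in the control pools and 29.9, 30.5, 32.1 and 33.1 CPM in the mutant pools, again with control replicate 4 lowest. Of 21 partners and cofactors 19 had a row, with 8 higher and 11 lower and a median of -0.03. *Tle4*, a corepressor of the Groucho family, was higher in every mutant pool at 29.5, 29.0, 28.0 and 31.7 CPM against 23.5, 27.3 and 25.0 CPM (adjusted p from limma 0.497). *Hdac3*, a histone deacetylase, was lower in every mutant pool by a log2 difference of -0.12 (adjusted p from limma 0.632), and *Chd4*, a nucleosome remodeler of the NuRD complex, was the most abundant of the list with a log2 difference of 0.07.

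Few other T-box genes were listed. Of 11 other family genes 2 had a row. *Tbx4*, a limb and lung factor that lies beside *Tbx2*, was at 2.11, 2.86 and 2.52 CPM in the control pools and 3.26, 1.67, 1.75 and 2.65 CPM in the mutant pools. *Mga*, a broadly expressed protein with both a T-box and a MYC-type domain, was at 81.8 to 94.9 CPM in the controls and 89.6 to 110.5 CPM in the mutants (adjusted p from limma 0.696).

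Genes with the pool pattern most like each member were found by centring log2(CPM + 0.5) on its mean over the 7 pools and taking the root mean square of the differences from the member. The 11626 other genes that averaged 5 CPM or more were compared, and the values are a description over 7 pools that share libraries and scaling. For *Tbx1* the closest were *Ankrd37* (0.060), *Stmn2* (0.070) and *Fam167a* (0.080), where the member's own spread was 0.245. For *Tbx2*, with a spread of 0.286, they were *Dlgap3* (0.069), *Wnk4* (0.102) and *Asic1* (0.108). For *Tbx3*, with a spread of 0.226, *Aqp1* was at 0.076, *Masp1* at 0.083 and *Nacad* at 0.083. *Tbx5* had the widest spread, 0.369. Its closest gene *Lcp1*, a leukocyte actin-bundling protein, was at 0.118, *Gm6136* at 0.138 and *Lyn*, a kinase of blood cells, at 0.189. For *Tbx18*, with a spread of 0.246, *Prokr2* was at 0.088, *Sh3bgrl2* at 0.095 and *L3hypdh* at 0.101. The steadiest member, *Tbx20*, with a spread of 0.118, had *Zswim3* at 0.030, *Mcf2l* at 0.032 and *F11r* at 0.035. No member was among the 3 closest of another.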

How the data were processed

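Polyadenylated RNA of pooled E11.5 OFT was sequenced from strand-specific libraries as single 60-base reads. According to the study's methods, the authors trimmed reads with Cutadapt 1.18, quantified genes on GRCm38 with RSEM 1.2.3, kept genes with 1 CPM in at least 3 samples and scaled libraries by TMM in edgeR 3.32.1. The deposited values are CPM of these TMM-adjusted libraries, 1 column per pool. A gene without a row was not analysed here, and the lack of a row is not a measured 0.

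CPM values of every pool were whole multiples of the value of 1 read (100% within 0.01), which returned the read numbers and totals of 17783655 to 34467710 reads per pool. TMM and CPM make levels relative to the library, so a shift in abundant genes moves all others. Groups were taken from the labels. Differences were tested with limma 3.58.1 (R 4.3.3, trend, two-sided) on log2(CPM + 0.5), which understates changes of low genes, with Benjamini-Hochberg adjustment over 14732 entries. The script was tested on simulated data, in which limma called 4 of 14732 genes when none had been changed. Alternatives were added constants of 0.1 and 2, a mean of at least 5 CPM, median-of-ratios rescaling, a replicate block, both DESeq2 1.42.0 and edgeR 4.0.16 (quasi-likelihood or likelihood ratio) on the recovered reads, and leaving out each pool. Levels per kilobase used the union of exons in GENCODE M21 (14723 entries found), or the longest transcript. Of the entries 14 had no symbol, and 11 symbols stood on more than 1 entry.

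The members and gene lists were chosen with earlier results of these data known. Genes named were every member, *Gata6*, other T-box genes with a row, in each list the 2 with the smallest unadjusted p and the 1 with the highest mean, the nearest or overlapping genes, and the 3 most alike in pattern. Of the genes this rule gives, some cell type markers and flanking genes are not described by name. *Nppa*, *Wt1*, *Aldh1a2*, *Npr3* and *Emcn* were named after their values were seen. One gene of the chamber list counts in that list's totals but is not reported here by itself.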

Additional observations from a re-analysis of the deposited data

Results flagged for a closer look

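Among the 4 *Gata6*STOP/+ pools, 1 pool lay far from the other 3 by Dixon's ratio of gap to range (95% critical value) for 5 of the 70 genes whose check is given here, where chance flags about 1 in 20 groups. In each it was *Gata6*STOP/+ replicate 3. *Tbx5* was at 16.4 CPM there and at 7.85 to 9.01 CPM in the other 3 pools. *Tgfb2*, the cushion growth factor, was lower at 210.8 CPM against 250.9 to 257.2 CPM, and *Tfap2a*, a neural crest marker, was at 1.74 CPM against 2.28 to 2.38 CPM. *Gm6136* was at 10.8 CPM against 4.56 to 5.61 CPM and *Lyn* at 20.8 CPM against 14.2 to 15.0 CPM. The last pair had been picked for a pattern like that of *Tbx5*, so they are not independent of it.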

How the results depend on the processing

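No T-box gene passed an adjusted p of 0.05 under any of the 17 alternatives. Leaving out 1 pool gave log2 differences of 0.24 to 0.48 for *Tbx1*, 0.15 to 0.54 for *Tbx2*, 0.07 to 0.39 for *Tbx3*, -0.33 to 0.10 for *Tbx5*, -0.32 to -0.12 for *Tbx18* and -0.0098 to 0.18 for *Tbx20*. *Tbx5* changed sign when control replicate 4 was left out (0.10) and when *Gata6*STOP/+ replicate 4 was (0.01), and *Tbx20* without control replicate 4 (-0.0098). The cause was not tested.

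Over all genes limma called 0, and 1187 had an unadjusted p under 0.05. The count was 1 with the constant 0.1, 105 with edgeR's likelihood ratio test, 88 with DESeq2 and 0 with edgeR's quasi-likelihood test. It ran from 0 to 13 when 1 pool was left out, with 13 without control replicate 4, 1 without *Gata6*STOP/+ replicate 1 and 2 without replicate 3. In the gene lists the likelihood ratio test called 3 of the 10 chamber genes, 1 BMP input (*Bmp10*, also a chamber gene) and 1 neural crest marker (*Ednrb*, also with the block), and DESeq2 called 1 chamber gene, counts chosen after seeing the data, as were the list medians without a pool.

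The labels do not say whether same-numbered pools belong together. Deviations of same-numbered pools from their group means correlated at -0.046, -0.266 and -0.017 over 11627 genes, which showed no pairing. With so few pools these deviations cancel within each group, so the check cannot exclude pairing. With the replicate block the counts over all genes were 14 with limma, 13 with edgeR's quasi-likelihood test and 118 with its likelihood ratio test. In the limma block fit *Tbx1* and *Tbx2* had log2 differences of 0.40 (adjusted p from limma 0.706) and 0.41 (adjusted p from limma 0.569). *Gata6*STOP/+ replicate 1 has no same-numbered control, so the block takes it out of the genotype comparison. Both log2 differences equal those with that pool left out. By longest transcript the levels per kilobase were 2.12 for *Tbx1*, 2.72 for *Tbx3* and 72.9 for *Tbx20*, while *Tbx2* stayed at 11.4. Ratios between members and shares of their sum therefore move with the length used. *Tbx1* rests on 90 to 200 reads a pool, the fewest of the members.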

Other observations

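Other gene groups of the dissected tissue were read beside the T-box genes, and 0 genes in them had an adjusted p under 0.05 with limma. Cushion mesenchyme genes, which TBX2 and TBX20 are known to influence, were measured for all 11 listed, with 5 higher and 6 lower by mean in the *Gata6*STOP/+ pools and a median log2 difference of -0.04 (-0.14 without control replicate 4, 0.07 without control replicate 3). Of these, *Tgfb2* had a log2 difference of 0.21 (adjusted p from limma 0.525) and *Vcan*, the abundant cushion proteoglycan, of -0.12. All 7 smooth muscle markers had a row, with 6 higher and 1 lower and a median of 0.15, the lower one being *Smtn*, below the controls in every mutant pool (log2 difference -0.15, adjusted p from limma 0.567). Of 15 cardiomyocyte markers 3 were higher and 12 lower, with a median of -0.12. *Gata6*STOP/+ replicate 1 was the lowest pool for 14 of the 15, and without it the median was -0.0052. *Tnni1*, the fetal troponin I, was lower in every mutant pool (log2 difference -0.26, adjusted p from limma 0.598).

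Of 8 sinus and conduction genes, a group tied to *Tbx3* and *Tbx18*, 6 had a row, 4 were higher and 2 lower, and the median was 0.05 (-0.03 without control replicate 4). *Hcn4*, the pacemaker channel, had a log2 difference of 0.20 (adjusted p from limma 0.685). Of 8 endocardial and endothelial markers 5 were higher and 3 lower, with a median of 0.05, which was 0.16 without control replicate 4 and -0.08 without control replicate 5. Of 7 neural crest markers 6 had a row, 2 were higher and 4 lower, and the median was -0.21, or -0.07 without control replicate 3 and -0.12 without control replicate 4. *Ednrb*, the endothelin receptor of crest and endocardium, was at 22.5, 81.0 and 27.8 CPM in the controls, with replicate 4 again apart, and at 18.6, 17.2, 14.1 and 16.5 CPM in the mutants (log2 difference -1.14, adjusted p from limma 0.393). The 2 pharyngeal keratins had a median of 0.11, which turned to -0.07 without control replicate 4, the lowest pool for both, and *Tcf21* a log2 difference of 0.0057.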
